A study of Homo sapiens with 6 samples.

Results

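The first megabases of chromosome band 11p15 hold a dense run of genes around a pair of imprinted domains. The genes described here are those whose exons all lie on chromosome 11 between 100000 and 4020000 (hg19), less H19, MIR675, IGF2, IGF2AS, CDKN1C, KCNQ1, KCNQ1OT1, PHLDA2, SLC22A18 and NAP1L4. The rule was applied to the gene positions in the deposited tables and found 105 of 23228 genes. Of these, 62 had enough reads for a test. The members were chosen by position, but the segment itself was picked from the read counts of control against PELP1-KD, the same comparison that is described below. The counts and differences are therefore descriptions and support nothing.

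RNA was sequenced from Hep3B, an established human hepatocellular carcinoma line grown in RPMI medium, in 3 control libraries and 3 libraries labelled PELP1-KD. The control cells carried a non-targeting shRNA, a short hairpin RNA that has no intended target, and the PELP1-KD cells a shRNA against PELP1, a coregulator of nuclear receptors. All cells received their shRNA by lentivirus, and the knockdown cells were pooled puromycin-resistant clones. Accounts in the labels and the study's methods differ about which PELP1 shRNA was used, the puromycin dose, how RNA was extracted, whether reads were paired and how mRNA was enriched.

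An imprinted gene is read mainly from the copy of 1 parent, under the control of a differentially methylated region. At 11p15 one such domain holds H19 and IGF2, a fetal growth factor gene, and the neighbouring one holds KCNQ1 and the growth inhibitor CDKN1C. Most genes toward the end of the chromosome are read from both copies, and they include antiviral membrane proteins, tetraspanins, mucins, kinases and parts of the ribosome and proteasome. The label "non-imprinted" covers 13 genes that are known or debated to be imprinted in some tissue or species, or that overlap an imprinted gene. Of those, only INS-IGF2, CD81, TSSC4 and SLC22A18AS were tested, and the other 58 tested neighbours carry no such doubt.

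Reads on genes numbered 26758363 to 34456542 per library, which gave the tested neighbours a median standard error of 0.059 for a log2 fold change. PELP1 itself was at 4970 ± 115 normalized reads in control and 4695 ± 238 in the libraries labelled PELP1-KD (SD, n = 3), or 94.5% of control (edgeR, adjusted p = 0.101; with the replicate number as a block, PELP1 passed the threshold at a log2 fold change of −0.08). The label of those libraries is therefore given as a label throughout. The 5 liver markers were all expressed, with summed RPKM (reads scaled to gene length and library size) of 8740 to 8960 in control and 7980 to 8150 in PELP1-KD, but they moved apart, with ALB at 65.4%, TTR at 65.6% and AFP at 154% of control. Of 9 markers of blood, endothelial and fibroblast cells 7 were under 1 RPKM, CD14 and COL1A2 were above it, CDH5 had no read, and the sums of all 9 were 8.2 to 9.31 and 8.1 to 8.71, with PDGFRB at 22.8%, CD14 at 50.6% and COL1A2 at 143% of control. The part of these markers in the results below was not tested. Nothing in the labels says that replicates came from separate cultures, so the spread between them may be technical. In bulk RNA, fewer cells that express a gene and less RNA per cell cannot be told apart.

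Most tested neighbours were slightly lower in the libraries labelled PELP1-KD. A gene is called here when its adjusted p, from edgeR over all 14537 tested genes, is below 0.05. Of the 62 tested neighbours 36 were called lower (58.1%) and 3 higher (4.84%), against 26.7% lower and 26.8% higher (53.6% in all) over all tested genes. In 36 neighbours every PELP1-KD library was below every control library and in 3 above, where 29.3% and 29.5% of all tested genes (58.8% in all) had groups without overlap. At least 2-fold changes were called lower for 7 neighbours and higher for 2, against 4.79% and 2.85% of all genes. Of the 36 lower calls 24 were smaller than 1.5-fold, as were 2721 of the 3887 lower calls over all tested genes. The median log2 fold change of the tested neighbours was −0.24, with quartiles of −0.41 and −0.09, whereas it was 0.00 over all tested genes and −0.01 over the 756 other tested genes of chromosome 11 outside the segment. The fitted difference was negative for 54 neighbours (87.1%), against 49.3% of all tested genes. With the replicate number as a block, 43 neighbours were called lower and 3 higher. No share over all tested genes stands beside these counts, so the rise from 36 is no result about the segment.

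Genes called lower lay along the whole segment, beside the imprinted domains and far from them. In chromosome order, the longest run of tested neighbours with a fitted difference below 0 was sought. It held 23 genes, from PNPLA2 to ZNF195, and 17 of them were called lower, against 26.7% of all tested genes. The shared sign follows from that search, which also raises the share called. The run passes over the imprinted genes left out, of which 7 of 9 tested had a fitted difference below 0. The 51 tested genes before H19 had a median log2 fold change of −0.16, with 29 called lower and 3 higher. The 7 tested genes after NAP1L4 had a median of −0.25, with 5 called lower and 2 not called. For scale, 9 of the 10 imprinted genes left out were tested, with a median of −1.43 and 7 called lower. Without the 13 genes of doubtful imprinting the median was −0.22, with 34 called lower of 58.

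**Figure D1:**
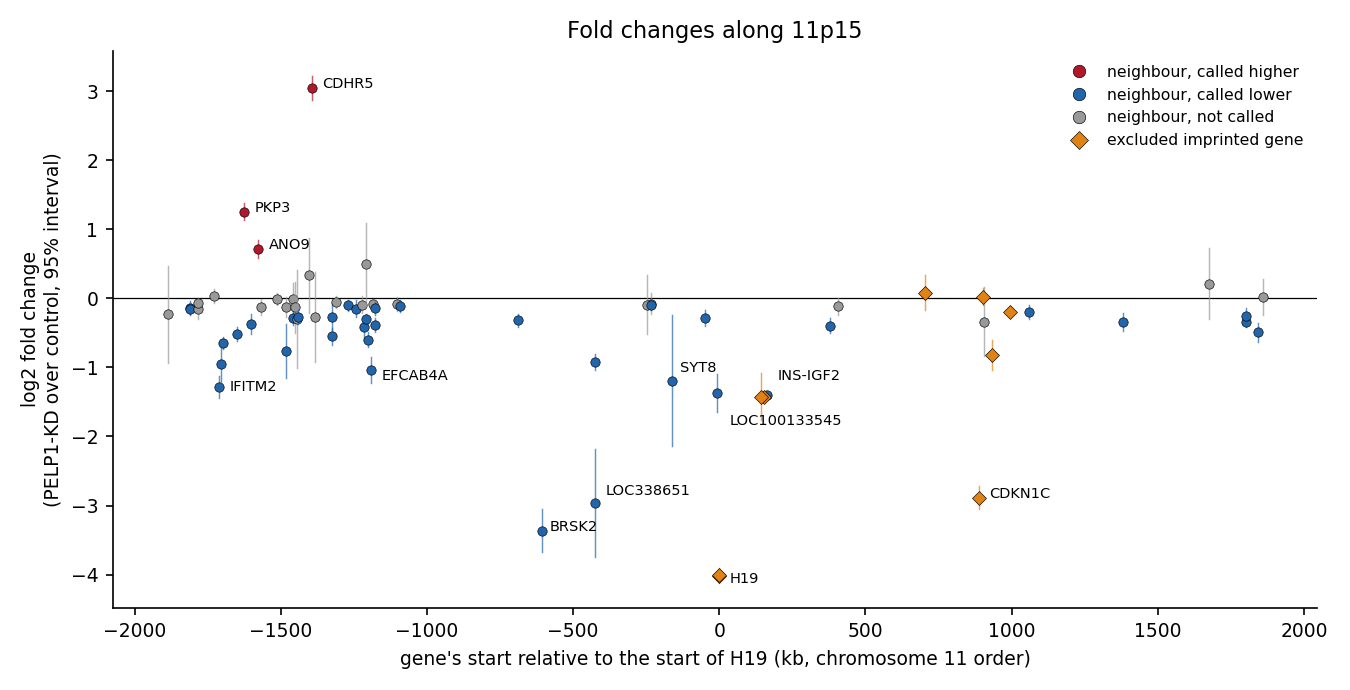
Log2 fold change of each tested gene (y axis, PELP1-KD over control, with its 95% interval) against the distance of its start from that of H19 (x axis, kilobases). Blue points are neighbours called lower, red points neighbours called higher, grey points neighbours not called and orange diamonds the imprinted genes left out. Most neighbours lie just below 0, with a median of −0.24, and CDHR5, PKP3 and ANO9 are the 3 called higher.

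The exons of the segment were rich in GC. The tested neighbours had a median exon GC content of 61.9%, against 49.3% over all tested genes, and a median length of 2232 against 2992 bases. With the replicate block and a correction of each library for GC content and gene length, 41 neighbours were called lower and 3 higher. The median log2 fold change was −0.23, and these counts too have no share over all tested genes beside them. Beyond those corrections, the part of base composition in the differences was not tested. The neighbours' summed reads fell from 306118 ± 6431 to 189209 ± 6880 normalized reads (SD, n = 3), or to 61.8% of control. INS-IGF2 carried much of that sum, and without it the other 104 genes were at 145359 ± 3080 in control and 128206 ± 5699 in PELP1-KD, or 88.2%. These sums are given without a test.

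The segment holds 5 genes of the interferon-induced transmembrane family. IFITM1, IFITM2 and IFITM3, which encode small membrane proteins that restrict the entry of viruses, lie side by side near the end of the chromosome and were called lower. IFITM5, beside them, had no read, and IFITM10, which lies apart at 1753640 to 1771824, was at 62.9 ± 7.93 and 59.4 ± 17.8 normalized reads and was not called (log2 fold change −0.09, SE 0.204). IFITM3 was the most abundant of the 3 lower genes per length, with 261 RPKM in control, followed by IFITM2 with 32.8 and IFITM1 with 8.38. The RefSeq promoters of IFITM1 and IFITM3 (GRCh38.p14, the 250 bases before each gene's start) are shown because these genes moved together and because both promoters hold the same motif. The IFITM1 promoter lies at chr11:313790-314039 on the + strand and the IFITM3 promoter at chr11:320861-321110 on the − strand. Capitals mark matches to the core of the interferon-stimulated response element, GAAA with any 2 bases before a further GAAA, and in IFITM3 also a match to GGGCGG, the GC box, read there on the other strand.
IFITM1: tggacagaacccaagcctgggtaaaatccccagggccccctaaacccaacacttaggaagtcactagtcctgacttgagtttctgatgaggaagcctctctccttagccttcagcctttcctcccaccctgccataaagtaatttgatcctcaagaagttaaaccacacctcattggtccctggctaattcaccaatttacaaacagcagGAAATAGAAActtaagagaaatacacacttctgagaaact
IFITM3: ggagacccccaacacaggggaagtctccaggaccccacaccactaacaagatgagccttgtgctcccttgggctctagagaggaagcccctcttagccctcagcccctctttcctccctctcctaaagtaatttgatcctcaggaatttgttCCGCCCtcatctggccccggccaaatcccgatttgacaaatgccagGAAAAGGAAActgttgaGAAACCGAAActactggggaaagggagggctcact

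The interferon core was found at −40 to −31 in IFITM1, and at −52 to −43 and −35 to −26 in IFITM3, counted from the gene's start. The GC box of IFITM3 is at −98 to −93, and no motif match overlaps another. Searched on both strands, the interferon core occurs in 3.02% of 35116 promoters of this length. Among the 40 tested neighbours with a promoter entry it was in IFITM1 and IFITM3 only. IFITM2 had no entry, so its promoter was not searched. Also searched on both strands were GGGCGG, held by 42.6% of promoters, the E-box CACGTG, held by 6.34%, and the TATA box TATAAA, held by 10.7%. Among the 40 tested neighbours with an entry, GGGCGG was in 29 (72.5%), CACGTG in 4 and TATAAA in 1. Only 58 of the 105 neighbours had an entry, which is too few for a comparison of motifs between the segment and other genes. These matches describe letters and not binding.

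IFITM2 had 699, 755 and 803 normalized reads in control and 289, 305 and 334 in PELP1-KD, a log2 fold change of −1.28 (SE 0.077). IFITM3 had 5347, 5398 and 5677 against 3298, 3459 and 3730, a log2 fold change of −0.65 (SE 0.045). IFITM1 had 141, 189 and 237 against 85.0, 112 and 96.9, a log2 fold change of −0.95 (SE 0.164). In each of the 3 genes every PELP1-KD library was below every control library, and IFITM1 varied most within the control group. These 3 genes resemble each other in sequence and each had read counts that were not whole in 3 libraries, so their reads may be split between them and their single values are uncertain. Of the 7 tested genes in the innate immunity list 5 were called lower (71.4%) and 2 were not called, with a median of −0.37. Over the tested neighbours 58.1% were called lower and over all tested genes 26.7%.

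Other innate immunity genes moved less, and the ones named next were picked after their values were seen. SIGIRR, which dampens signaling by interleukin-1 and Toll-like receptors, went from 680 ± 26.2 to 524 ± 36.0 normalized reads (log2 fold change −0.37) and was called lower. TOLLIP, an adaptor that acts in the same pathway, was called lower at −0.32. IRF7, the transcription factor that drives interferon genes, was scarce at 26, 39 and 21 reads in control and 35, 27 and 35 in PELP1-KD, and its log2 fold change of 0.34 was not called. RNH1, the ribonuclease inhibitor, was at 4019 ± 68.0 and 4014 ± 207 normalized reads and was not called.

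The segment held 3 genes called higher, and all lie between IFITM3 and BRSK2. CDHR5, a protocadherin of the microvilli of intestine and kidney, had 117, 103 and 114 normalized reads in control and 885, 909 and 969 in PELP1-KD. The fitted change was 8.27-fold, a log2 fold change of 3.05 (SE 0.082, 95% interval 2.88 to 3.22). PKP3, plakophilin 3 of the desmosome, had 689, 614 and 703 against 1514, 1644 and 1642, or 2.39-fold (log2 fold change 1.26, SE 0.059). The chloride channel family member ANO9 had 928, 996 and 1150 against 1626, 1667 and 1757 (log2 fold change 0.72, SE 0.064). For all 3 the highest control library was below the lowest PELP1-KD library.

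PKP3 and ANO9 lie next to genes that were called lower, whereas the tested genes nearest to CDHR5 were scarce and not called. PKP3 lies at 394217 to 404908, between B4GALNT4 at 369795 to 382117 and SIGIRR at 405716 to 417397, both called lower. ANO9 follows SIGIRR at 417930 to 442011 and is itself followed by PTDSS2, called lower only with a replicate block or without PELP1-KD replicate 3 (alone or with control replicate 3), and RNH1, which was not called. CDHR5, at 616565 to 625067, lies after IRF7, which was not called (SE 0.260). After CDHR5 come SCT, which was not tested, and DRD4, which had 23.8 ± 8.70 and 19.7 ± 3.41 normalized reads and was not called (SE 0.312). The next tested genes beyond IRF7 and DRD4, PHRF1 (−0.27) and DEAF1 (−0.55), were both called lower. All coordinates are in hg19 and taken from the deposited tables.

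**Figure D2:**
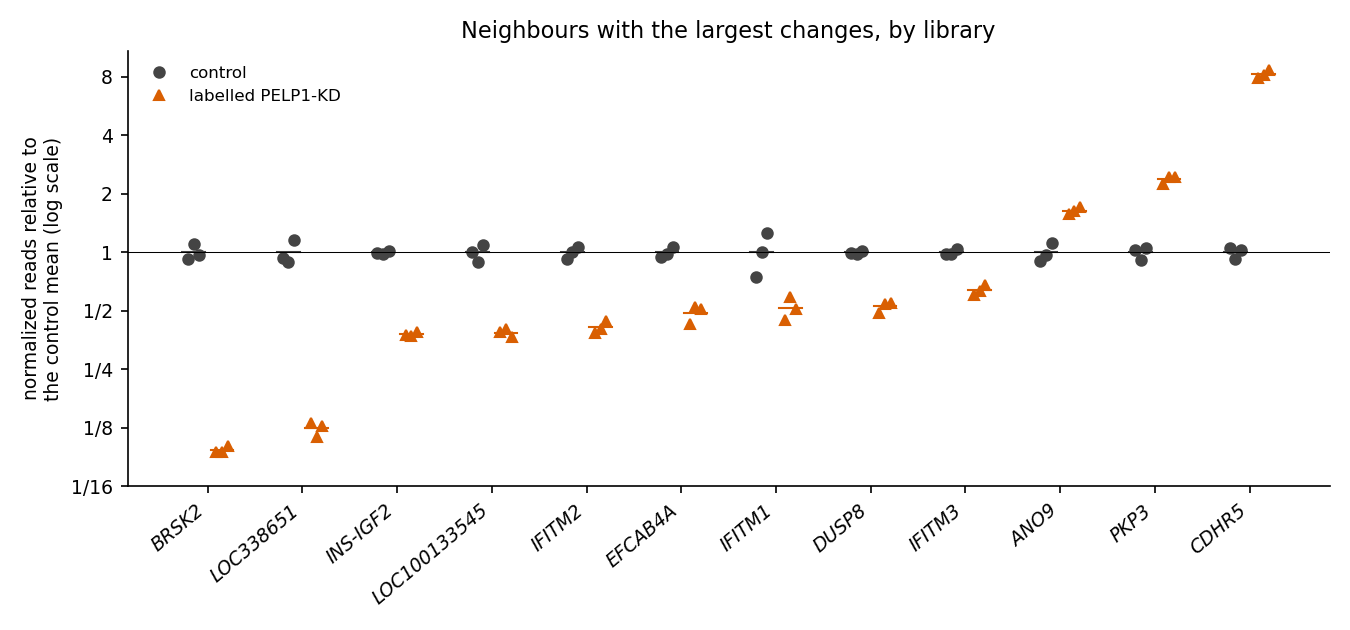
Normalized reads of 12 neighbours in each library (y axis, log scale, relative to the control mean), as grey circles for the 3 control libraries and orange triangles for the 3 libraries labelled PELP1-KD, with a line at each group mean. The PELP1-KD points are lowest for BRSK2, at a fitted 9.69% of control, and highest for CDHR5, at a fitted 8.27-fold. The 12 genes were picked from the called ones, so that their groups do not overlap follows largely from the choice. Of all tested genes, 58.8% had groups without overlap.

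The tetraspanins, membrane proteins that organise other proteins into patches, were lower or little changed. CD81, also a receptor for hepatitis C virus, had 5111, 4925 and 4705 normalized reads in control and 3453, 3725 and 4037 in PELP1-KD, a log2 fold change of −0.39 (SE 0.049). TSPAN4 went from 2242 ± 94.7 to 1711 ± 73.0 (−0.39) and was called lower. CD151, a partner of integrins and with 129 RPKM in control the most abundant of the list, went from 6296 ± 92.9 to 5940 ± 220 and was not called (−0.08), although it was called lower with a replicate block. This list, of tetraspanins and partners, also holds the plakophilin PKP3 and the protocadherin CDHR5, given above, which are not tetraspanins. Of its 5 tested genes, PKP3 and CDHR5 were the 2 called higher. The 2 called lower, CD81 and TSPAN4, are tetraspanins.

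BRSK2, a kinase of the AMPK family known from neurons, showed the largest fall of the segment. It had 230, 275 and 241 normalized reads in control and 23.5, 23.3 and 25.0 in PELP1-KD. The fitted level in PELP1-KD was 9.69% of that in control, a log2 fold change of −3.37 (SE 0.149, 95% interval −3.68 to −3.06). DUSP8, a phosphatase of the JNK and p38 kinases, had 1391, 1386 and 1438 against 685, 765 and 775, a log2 fold change of −0.92 (SE 0.056). LRRC56, a leucine-rich repeat protein, was low at 91.3 ± 13.3 and 53.6 ± 13.4 normalized reads (−0.76) and shares 67 exon bases with C11orf35 on the opposite strand. Neither group overlapped the other in these 3 genes.

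Of the 11 tested genes for RAS signaling, transcription and cell death 8 were called lower (72.7%) and 3 were not called, with a median of −0.35. The share called lower was 58.1% over the tested neighbours and 26.7% over all tested genes. DEAF1, a transcription factor, went from 1452 ± 68.4 to 995 ± 76.2 normalized reads (−0.55), and the p53-induced death domain gene PIDD from 520 ± 5.82 to 390 ± 42.2 (−0.42). Both were picked after their values were seen. HRAS itself, the RAS gene of the segment, was at 898 ± 20.4 and 823 ± 93.5 and was not called (−0.12), but was called lower with a replicate block. With GC content and gene length corrected as well, HRAS was not called (−0.09). EPS8L2, an actin regulator and at 48.1 RPKM in control the most abundant gene of the list, was at 4747 ± 234 and 4572 ± 210 and was not called.

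Housekeeping genes of the segment were lower by small amounts. Of the 11 tested genes for gene expression, proteasome and transport machinery 9 were called lower (81.8%) and 2 were not called, with log2 fold changes between −0.49 and −0.07. The share called lower was 58.1% over the tested neighbours and 26.7% over all tested genes. Without PELP1-KD replicate 2 the lower calls were 5 and without control replicate 3 they were 6, whereas the replicate block gave 11. RPLP2, a protein of the ribosomal stalk, went from 928 ± 30.7 to 752 ± 33.6 RPKM (−0.30). NUP98, a nuclear pore protein, went from 5377 ± 92.5 to 4235 ± 65.7 normalized reads (−0.34). In both genes the lowest control library was above the highest PELP1-KD library.

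Of the 8 tested genes for lipid, sugar and mitochondrial metabolism 5 were called lower (62.5%) and 3 were not called. The share called lower was 58.1% over the tested neighbours and 26.7% over all tested genes. The lower calls were 3 without control replicate 1, control replicate 3, PELP1-KD replicate 1 or PELP1-KD replicate 2, and 7 with the replicate block. PNPLA2, the lipase that opens the breakdown of stored triglyceride, had 1905, 2005 and 2098 normalized reads in control and 1254, 1355 and 1361 in PELP1-KD (−0.60, SE 0.051). PGAP2, which remodels lipid anchors of membrane proteins, went from 955 ± 41.4 to 800 ± 42.6 (−0.25). The transaldolase gene TALDO1, the most abundant of the list at 164 RPKM in control, went from 6417 ± 46.4 to 5990 ± 284 (−0.10), and that call was lost when any library other than PELP1-KD replicate 3 was left out.

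Among secreted and Golgi proteins, the glycosyltransferase B4GALNT4 went from 2309 ± 54.6 to 1614 ± 97.4 normalized reads (−0.52) and was called lower. CTSD, the lysosomal protease cathepsin D, was second in this segment only to INS-IGF2 in total reads, with 34414, 34126 and 35622 normalized reads in control and 30889, 32470 and 33978 in PELP1-KD. Its log2 fold change of −0.10 (SE 0.034) was called lower, though not without control replicate 3, PELP1-KD replicate 1 or PELP1-KD replicate 2. The mucins were nearly silent in this line: MUC6 had 11, 5 and 6 reads in control and 2, 0 and 0 in PELP1-KD, and MUC5B 5, 1 and 2 against 0, 0 and 0. Both were below the filter on low counts. Without the filter edgeR called both lower, and DESeq2 called MUC6 lower.

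EFCAB4A, a regulator of store-operated calcium channels, had 415, 427 and 465 normalized reads in control and 187, 229 and 223 in PELP1-KD, or 48.8% of control, and was called lower. SYT8, a synaptotagmin, had only 13, 14 and 12 reads in control and 8, 4 and 3 in PELP1-KD. Its lower call held in 1 of 6 fits that left out a library, the one without PELP1-KD replicate 1, with log2 fold changes between −1.67 and −0.89 over those fits. Of the 5 tested channel and transporter genes, 2 were called lower, EFCAB4A and SYT8, and 1 higher, ANO9.

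**Figure D3:**
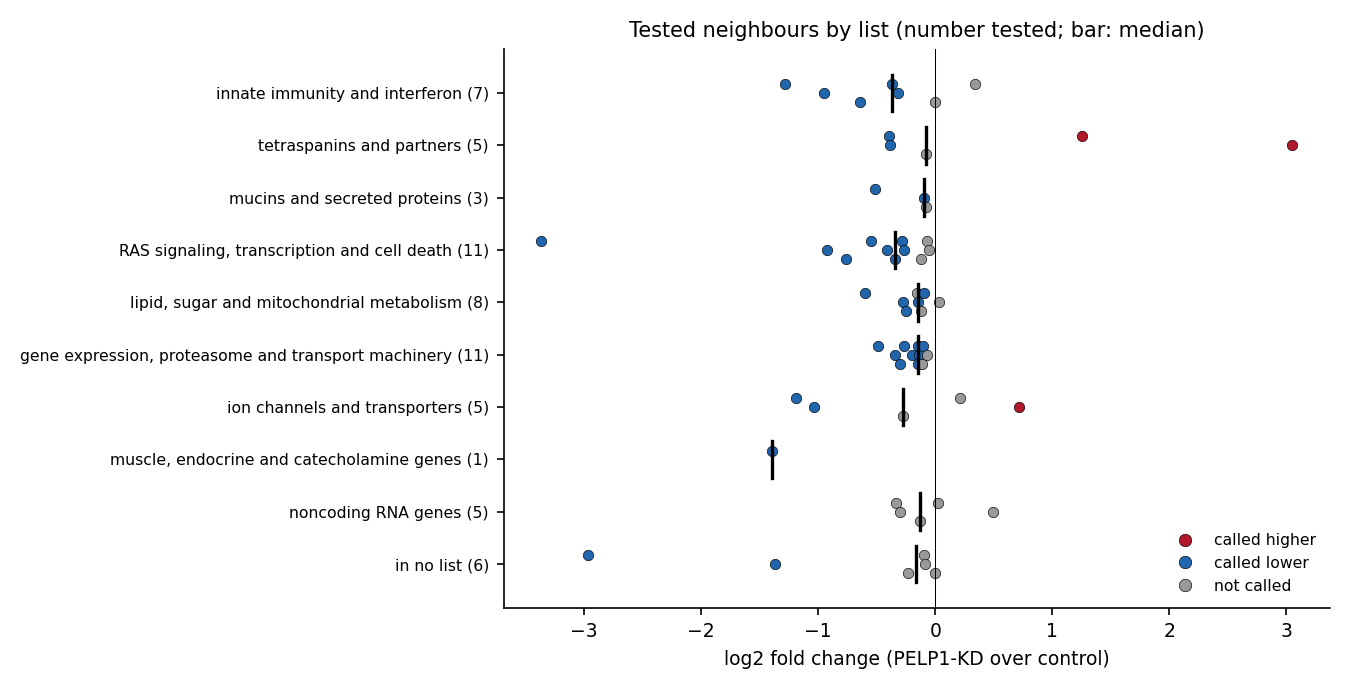
Log2 fold change (x axis, PELP1-KD over control) of the tested neighbours in each list of genes by role (rows, with the number tested), 1 point a gene, and the median of the list as a black bar. Genes called lower are blue, called higher red and not called grey. The innate immunity and RAS lists have medians of −0.37 and −0.35, and the metabolism and machinery lists both −0.15.

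The genes beside the imprinted domains were not alike. LOC100133545, for which the tables give no other name, lies 5.3 kb before H19. It had 175, 156 and 191 normalized reads in control and 67.6, 70.0 and 63.9 in PELP1-KD, a log2 fold change of −1.37 (SE 0.132). MRPL23, a protein of the mitochondrial ribosome that lies 38.6 kb from H19, went from 1539 ± 35.7 to 1268 ± 105 (−0.28). The nearer of them had the larger difference, but BRSK2, farther from H19 on the same side, had a larger one still (−3.37). A relation to distance was not tested.

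Between the domains lie CD81, given above, and TSSC4, a splicing factor gene, which went from 1173 ± 42.4 to 1083 ± 85.5 normalized reads and was not called (−0.12), but was called lower with a replicate block. With GC content and gene length corrected as well, TSSC4 was not called (−0.09). CARS, the cysteinyl-tRNA synthetase gene whose nearer edge lies 8.5 kb after NAP1L4, went from 1533 ± 47.8 to 1333 ± 25.3 (−0.20). The zinc finger gene ZNF195 had 926, 889 and 831 against 717, 725 and 645 normalized reads. CARS and ZNF195 were both called lower, with no overlap between the groups.

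INS-IGF2, the read-through gene of insulin and IGF2, had 159582, 158133 and 164563 normalized reads in control and 60461, 59949 and 62599 in PELP1-KD, a log2 fold change of −1.40 (SE 0.028). Its exons share 5127 of 5259 bases with IGF2 or INS, and INS had no read in any library. IGF2, one of the genes left out, had a log2 fold change of −1.43, so reads of INS-IGF2 and IGF2 cannot be told apart. SLC22A18AS, antisense to SLC22A18, had 58, 40 and 42 reads against 27, 40 and 31 and was not called.

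The 5 tested genes in the noncoding RNA list had log2 fold changes between −0.34 and 0.49 and overlapping groups. By edgeR 0 of them were called, 0 had an unadjusted p below 0.05, and DESeq2 called 0. Without PELP1-KD replicate 1, SNORA52, a small nucleolar RNA of the RPLP2 locus with 24, 20 and 23 reads in control and 18, 29 and 37 in PELP1-KD, was called higher. MIR4687, the most abundant of them at 60.1 RPKM in control and 61.0 in PELP1-KD, shares all of its 80 bases with STIM1, so its reads may be those of STIM1. LOC100133545, given above, and LOC338651 are in none of the lists, and both were called lower without overlap between the groups. LOC338651 had 32, 29 and 38 reads in control and 4, 3 and 4 in PELP1-KD, a log2 fold change of −2.96 (SE 0.371). It shares 1047 exon bases with KRTAP5-2 on the opposite strand, which had no read. TSPAN4, HRAS, PHRF1, SCT, DRD4, SNORA52, LOC338651, LOC255512, IFITM5, IFITM10, PTDSS2, MUC6 and MUC5B lie outside the naming rule and were chosen after their values were seen.

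**Figure D4:**
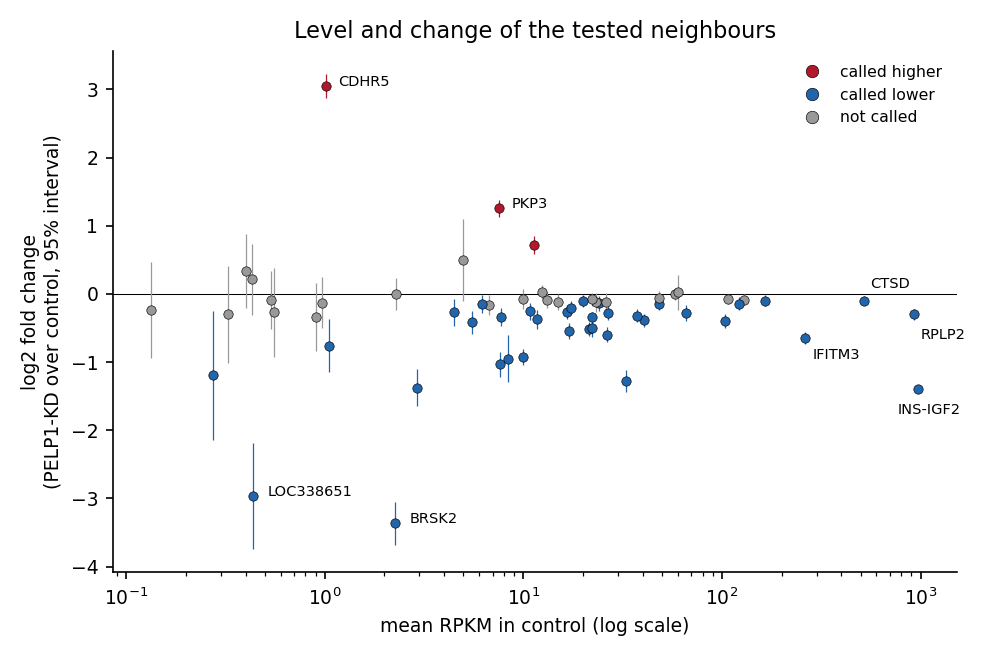
Log2 fold change of each tested neighbour (y axis, PELP1-KD over control, with its 95% interval) against its mean RPKM in control (x axis, log scale). Called lower genes are blue, called higher red and not called grey. Intervals widen below 1 RPKM, and the most abundant genes, INS-IGF2, RPLP2 and CTSD, had log2 fold changes of −1.40, −0.30 and −0.10.

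At the end of the window, the last gene inside was MIR4687, not called. The next genes outside were STIM1, at 89.7% of control with a log2 fold change of −0.16, and RRM1, at 77.9% with −0.36. The first genes inside were LOC100133161, with 19.5 ± 5.22 and 16.6 ± 5.92 normalized reads and not called, and LOC653486 with no read. Both STIM1 and RRM1 were called lower, where 29.0% of the 756 tested genes of chromosome 11 outside the segment were. Tested genes further out were not looked at one by one.

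The other 43 neighbours were not tested. Of these, 22 had no read in any library and the other 21 at most 48 reads over the 6 libraries, and all were below the filter. When those 21 were fitted without a filter, edgeR called 4 lower, LOC255512, MUC5B, MUC6 and TRPM5, and DESeq2, which gave an adjusted p for 11, called LOC255512 and MUC6 lower. LOC255512 had 16, 17 and 8 reads in control and 1, 1 and 5 in PELP1-KD. More reads were in control for 15 of the 21, fewer for 4 and as many for 2. Of the genes of doubtful imprinting, OSBPL5 had 5, 2 and 4 reads in control and 0, 0 and 1 in PELP1-KD, TRPM5 1, 4 and 3 against 0, 0 and 0, and MIR483 3, 7 and 7 against 3, 1 and 1. TH, ASCL2 and SNORA54 had at most 2 reads in a library, and INS, KCNQ1DN and TSPAN32 had none.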

How the data were processed

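RNA of 6 Hep3B libraries was analysed, 3 control and 3 labelled PELP1-KD, grouped by their titles. Per the file headers, the authors deposited estimated counts per gene from featureCounts 1.5.0-p1, run by strand on exons of hg19 with a minimum mapping quality of 2, with reads of several places or genes shared out as fractions. The submitters' processing notes name HISAT2, the paper's methods TopHat2 and HTSeq. Shared reads make paralogs and overlapping genes less certain: 2 tested neighbours share exon bases on the same strand and 11 on the opposite one.

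Counts were rounded and tested with edgeR 4.0.16 in R 4.3.3 (TMM, filterByExpr, robust glmQLFit, glmQLFTest, Benjamini-Hochberg over 14537 genes), and the scripts were tested on simulated data. Thresholds were an adjusted p of 0.05 and, for 2-fold counts, a log2 fold change of 1. Normalized reads are reads over the TMM-scaled library size, and intervals use the fit's degrees of freedom (18.3 to 19.1).

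The members, gene lists and the naming rule were chosen with earlier results of these data known. Named were members called at least 2-fold changed whose higher group averaged 100 or more normalized reads, the 3 largest called changes and the most abundant gene of each list, the 2 tested members nearest each side of an imprinted span, and members of doubtful imprinting. Of the genes the rule names, 1 is not reported here. Deviations from the group means of same-numbered libraries correlated at 0.336, 0.247 and 0.666 over 6370 genes. Control 2 and PELP1-KD 1 correlated at 0.418, and control 1 and PELP1-KD 2 at 0.244. The correlations thus single out only the pair numbered 3. The replicate block takes all the numbers to pair the libraries, which for 1 and 2 rests on the titles alone. Replicates differed by more than sampling noise (chi-square per degree of freedom 1.92 to 6.76). Alternatives were DESeq2 1.42.0, other normalizations, filters and thresholds, a replicate block and single libraries left out.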

Additional observations from a re-analysis of the deposited data

How the results depend on the processing

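No called neighbour changed the sign of its difference under any alternative run, while 7 that were not called did. Among those named by rule this was MIR4687, which went from 0.02 to −0.051 with the replicate block and length correction, −0.033 with GC content added and −0.122 without replicate 3 of both groups, and ranged from −0.123 without PELP1-KD replicate 3 to 0.124 without PELP1-KD replicate 1. The median log2 fold change of −0.24 moved to −0.17 without the members that share exon bases, which leaves 50 tested, and ranged from −0.26 to −0.18 over fits that left out a library, nearest 0 without control replicate 3 (−0.18) and control replicate 1 (−0.19). Those fits called 29 to 42 neighbours lower and 3 to 4 higher, and 6 to 8 lower and 2 higher by at least 2-fold. DESeq2 called 34 lower, and edgeR without the filter 37, of which 4 were not tested in the main comparison. With the replicate block 43 were called lower and none of the main calls was lost. With replicate 3 of both groups left out, 41 were called lower. That alternative, like the correction for GC content, was chosen after seeing the data. Shares over all tested genes are given for the main fit only, so the counts of other fits cannot be set against such a share. Of the values of named genes under an alternative, 457 kept their direction and their side of the threshold, 16 fell short of it, 16 passed it anew and 4 changed sign. The calls of SYT8 and LOC338651 rest on few reads: both were lost when at least 10 reads in every library or 1 RPKM were required, since neither was then tested.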
